A study of Mus musculus with 27 samples.

Results

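The genes described here build and run the cytosolic translation machinery: the ribosomal proteins and the initiation and elongation factors, measured as messenger RNA in whole brain of the mouse strains DBA and C57. The members are all probe sets of the unlettered arrays whose annotated symbol is a cytosolic ribosomal protein (Rpl or Rps with a number and an optional a, l or x, or Rplp0 to Rplp2) or begins with Eif or Eef and a digit. The Rps6k kinases and the sex-linked pair Eif2s3x and Eif2s3y were left out. The rule found 110 of 12422 gene probe sets, which stand for 79 of 8251 named genes. Ribosomal proteins account for 46 sets (32 genes) and factors for 64 sets (47 genes). Factors here means all members with an Eif or Eef symbol, which include inhibitors, kinases and the enzyme Eef1akmt1.

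The DBA group was 4 mice, written DBA/2J in the labels, with no sex given. The C57 group was 5 male mice, written C57BL/2. All were 10 weeks old and naive, and 5 ug of total RNA was used for each oligonucleotide array. The arrays carry a strain and a number, DBA 1 to 4 and C57 1 to 5. Each number was taken as 1 animal, which the labels do not state. The labels give no hybridisation date or other batch, so no value within a batch could be given. A whole brain mixes neurons, glia and vessels, and in such RNA fewer cells of a type and less RNA per cell cannot be told apart. The tissue label was checked against neuronal markers: 8 of 9 neuron probe sets were bright enough to test, and their summed intensity was 43655 to 49073 in DBA brains and 42672 to 45675 in C57 brains.

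A ribosome consists of a small subunit, which reads the message, and a large subunit, which joins amino acids. In initiation, the eIF4 proteins bind the capped message, eIF3 bridges it to the small subunit, and eIF2 brings the initiator tRNA to the start codon. In elongation, eEF1A delivers each charged tRNA and eEF2 moves the ribosome along. Most ribosomal proteins are present as a single copy in each ribosome, and their messages rank among the abundant ones of most cells. In neurons, 4E-binding proteins and the eEF2 and eIF2 kinases hold translation back, and the supply of new protein at synapses is known to depend on them.

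Many of these messages belong to a class that begins with a cytosine and a run of pyrimidines, through which the mTOR pathway adjusts their translation. RefSeq start sites of assembly GRCm38.p6 were searched for such runs: a C followed only by C or T, at least 8 letters in all, on the strand of the gene, within 20 bases either side of the listed start. A run was found at 11 of 34 ribosomal protein starts (32.4%, 25 of 32 genes matched) and at 10 of 54 factor starts (18.5%, 39 of 47 genes matched). The share over all 32851 starts of the table was 12.6%. A match describes the letters only, and a run may lie wholly before or after the listed start. Where a window holds none nothing follows about control of the gene. The windows shown are of 5 members with a run, and of 6 that recur in the results (both listed starts of Eif4e), to set such starts beside others. They were chosen after values and letters were seen, and the run is in capitals.
Rps18 (chr17:33955646-33955685, minus strand): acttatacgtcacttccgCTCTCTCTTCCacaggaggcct
Rps10 (chr17:27635225-27635264, minus strand): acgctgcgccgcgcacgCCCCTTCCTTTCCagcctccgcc
Rpl7a (chr2:26910787-26910826, plus strand): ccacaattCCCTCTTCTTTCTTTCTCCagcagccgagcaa
Eif3f (chr7:108934395-108934434, plus strand): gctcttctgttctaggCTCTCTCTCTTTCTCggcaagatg
Eef1a1 (chr9:78481705-78481744, minus strand): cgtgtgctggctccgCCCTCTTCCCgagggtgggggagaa
Eef1a2 (chr2:181156996-181157035, minus strand): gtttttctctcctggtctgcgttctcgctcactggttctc
Rps7 (chr12:28635934-28635973, minus strand): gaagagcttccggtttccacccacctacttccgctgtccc
Rps28 (chr17:33824543-33824582, minus strand): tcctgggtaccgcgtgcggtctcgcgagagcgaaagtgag
Rps4x (chrX:102189372-102189411, minus strand): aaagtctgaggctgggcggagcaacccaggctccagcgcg
Eif3b (chr5:140419285-140419324, plus strand): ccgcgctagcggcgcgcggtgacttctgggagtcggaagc
Eif4e, first start (chr3:138526171-138526210, plus strand): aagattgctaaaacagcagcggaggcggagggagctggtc
Eif4e, second start (chr3:138527248-138527287, plus strand): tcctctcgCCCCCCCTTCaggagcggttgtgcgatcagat
The 19-letter run of Rpl7a and the 15-letter run of Eif3f are long examples. The paralogs Eef1a1 and Eef1a2, the general and the neuron and muscle form of eEF1A, differ in this window: the longest run of Eef1a2 has 7 letters. Of the 2 starts of Eif4e, the second holds a run. Its 10 letters begin at position -12 relative to the listed start and end before that start.

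The question was whether any of these messages differed between DBA and C57 brain. Of the 110 member sets, 84 sets of 68 genes had a mean intensity over the 9 arrays above the brightness limit of 35.4 and were tested. The other 26 sets had mean intensities of 4.65 to 32.4. They left 11 genes without a tested set: Rpl32, Rpl35a, Rpl39, Rpl39l, Rps14, Rps15, Rps20, Rps27l, Eef1g, Eif4enif1 and Eif4h. The limit was set on the mean of both strains. The tested member set Eef2k 104481_at was the single one with a strain mean (C57) under it. Intensity differs between probe sets for reasons of sequence, so levels are compared between strains within a set and never between genes. Whether the probes of a set read both strains alike was not tested.

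Between DBA and C57, 2 of the 84 tested member sets passed the threshold of an adjusted p under 0.05, both lower in DBA: Eef1akmt1 and 1 of 2 sets of Rps4l. Over all 9316 tested sets 2.50% passed in either direction, 1.61% lower and 0.891% higher in DBA, and the members' share of 2.38% was near that background. At an unadjusted p under 0.05, 7 member sets passed (8.33%), 2 higher and 5 lower in DBA, against 12.2% of all sets. The arrays of the strains did not overlap for 4 member sets (4.76%), against 6.45% of all sets. The log2 difference, always DBA minus C57, had a median of 0.02 over 31 ribosomal protein sets, 0.01 over 53 factor sets and 0.01 over all tested sets. Of the ribosomal protein sets 17 lay above 0 and 14 below, and of the factor sets 29 above and 24 below.

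The width of the intervals bounds what could have been missed. The 95% interval of the difference lay wholly within 2-fold either way for 72 of the 84 sets (85.7%, against 85.3% of all tested sets) and within 1.5-fold for 55 (65.5%, against 56.7%). Among sets with a mean intensity over 2000, all 19 ribosomal protein sets and all 8 factor sets were bounded within 2-fold, and 17 and 8 of them within 1.5-fold. Of all 917 tested sets over that mean, 97.8% were bounded within 2-fold and 87.5% within 1.5-fold.

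**Figure D1:**
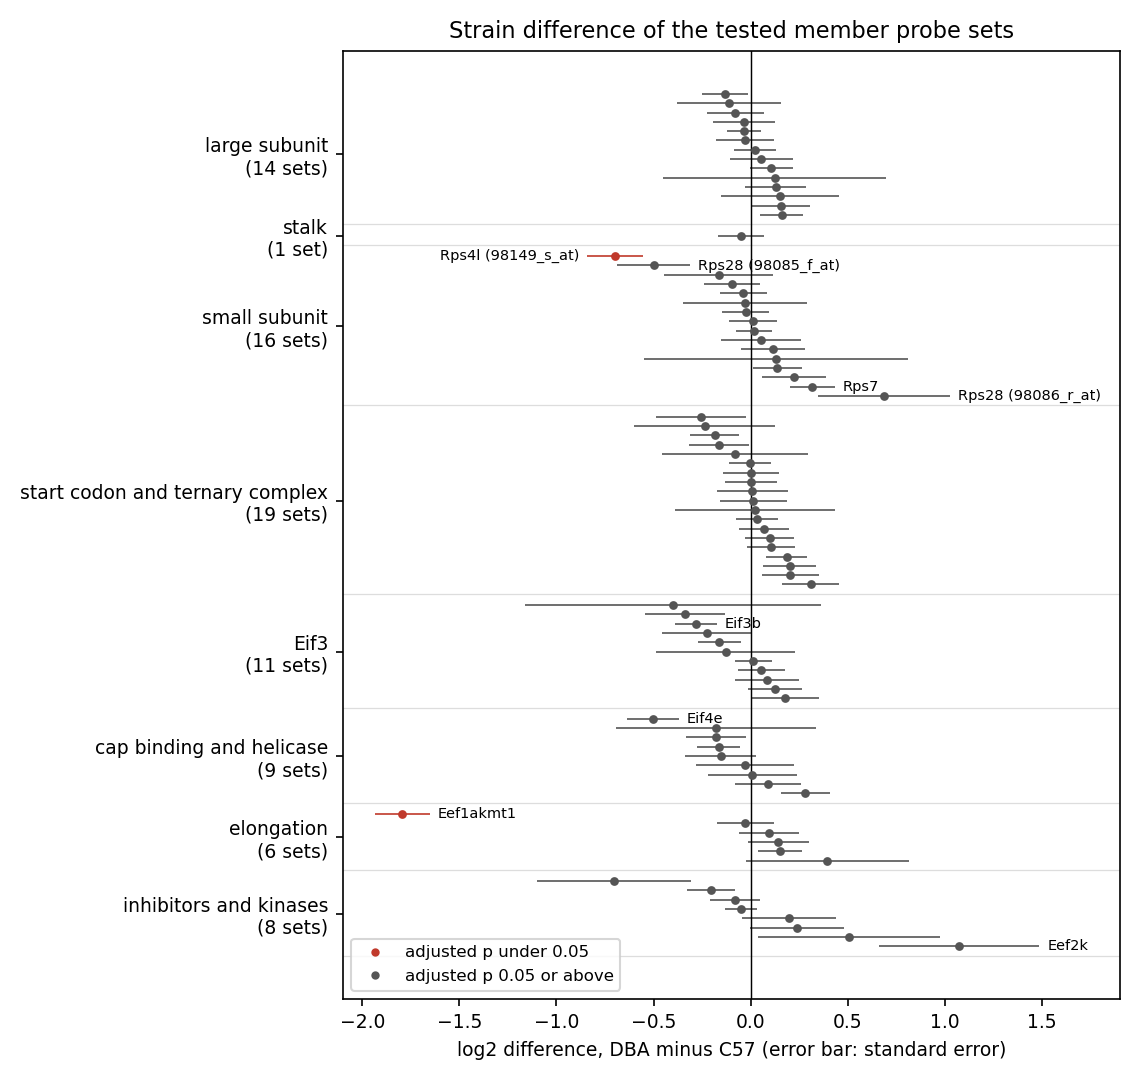
Log2 difference (x axis, DBA minus C57, 4 DBA and 5 C57 brains) of each of the 84 tested member sets, grouped by role down the y axis. Points are estimates and bars their standard errors. The 2 red points, Eef1akmt1 at -1.79 and Rps4l (98149_s_at) at -0.70, passed the adjusted threshold, and the other sets scatter on both sides of 0.

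The clearest difference was that of Eef1akmt1, whose human counterpart encodes a methyltransferase that modifies a lysine of eEF1A. Its symbol begins with Eef and so falls under the rule, although it is an enzyme acting on an elongation factor and not a factor. The intensity of its probe set 100073_at was 106, 159, 138 and 168 in DBA 1 to 4, against 518, 498, 495, 435 and 494 in C57 1 to 5. Every DBA brain lay below every C57 brain, with no value between 168 and 435. The signal of this set was 3.47-fold lower in DBA (log2 difference -1.79 ± 0.14, 95% interval -2.11 to -1.47, adjusted p = 9.32e-05). It stayed past the threshold with each array left out in turn, with differences of -1.88 to -1.66. The array carried 1 set for this gene, which RefSeq places on mouse chromosome 14, so no second set could be put beside it.

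The messages of its substrates did not pass the test. Eef1a1, the general form, had intensities of 18117, 22263, 23194 and 16165 in DBA brains, against 14939, 19269, 16929, 22846 and 19332 in C57 brains. Eef1a2, the form of neurons and muscle, had 12944, 17894, 14507 and 13689 in DBA brains, against 10402, 13219, 12152, 16253 and 15122 in C57 brains. The strains overlapped for both. The log2 differences were 0.09 ± 0.16 for Eef1a1 (95% interval -0.26 to 0.44) and 0.14 ± 0.16 for Eef1a2 (-0.20 to 0.49), with adjusted p of 0.882 and 0.808.

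Rps4l, an autosomal gene similar to the small subunit gene Rps4x, gave divided values. Its set 98149_s_at had intensities of 354, 504, 395 and 444 in DBA brains, against 545, 736, 646, 771 and 741 in C57 brains. The highest DBA brain lay below the lowest C57 brain. This set was 1.62-fold lower in DBA (log2 difference -0.70 ± 0.14, 95% interval -1.02 to -0.38, adjusted p = 0.0333). The call was lost without C57 2, 3, 4 or 5 or without DBA 1, 3 or 4 (adjusted p of 0.0646 to 0.103), and held without C57 1 or DBA 2. It was also lost with each array centred on its median (adjusted p = 0.0912).

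The other set of Rps4l, 98148_at, had 51.7, 57.8, 48.8 and 76.9 in DBA brains, against 94.3, 36.3, 88.7, 65.1 and 36.5 in C57 brains. These values overlapped fully, and the log2 difference was -0.03 ± 0.32 (95% interval -0.74 to 0.68). The suffix s_at marks a set whose probes are shared by more than 1 transcript, so the gene behind 98149_s_at is uncertain. Rps4x itself, on the X chromosome, had 7467 to 8077 in DBA brains and 7057 to 8385 in C57 brains by its tested set 100780_at, a log2 difference of 0.02 ± 0.09 (95% interval -0.19 to 0.22).

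**Figure D2:**
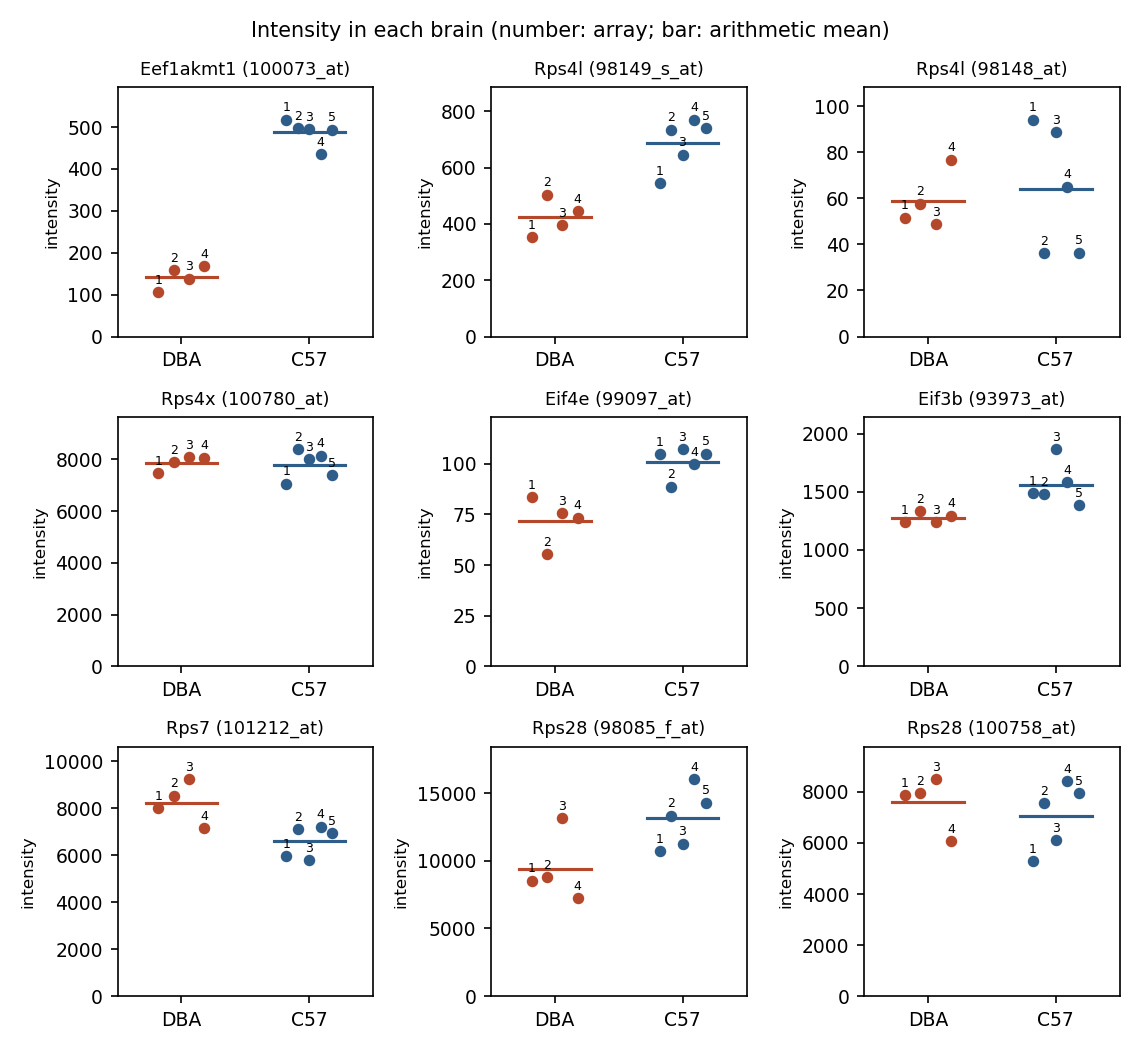
Intensity (y axis, linear, from 0) in each brain for 9 member sets, DBA left and C57 right. Points are single arrays with their number and bars are arithmetic means. Eef1akmt1 (106 to 168 in DBA, 435 to 518 in C57), Rps4l 98149_s_at, Eif4e and Eif3b separate the strains, and Rps4l 98148_at, Rps4x, Rps7 and both Rps28 sets shown do not.

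Some other features of the arrays moved with strain. Of 9 tested microglia sets 2 (C1qb and C1qc) passed the adjusted threshold, both lower in DBA, where 1.61% of all tested sets passed lower. The summed intensities of the 9 sets were 3962 to 4455 in DBA brains and 4811 to 5667 in C57 brains, and no microglia set was under the brightness limit. These sums include C1qb (mean 564 in DBA, 1020 in C57) and C1qc (724 and 1137). Only those 2 sets had an unadjusted p under 0.05 by limma. Differences of the microglia sets lay below 0 for 7 and above for 2, with a median of -0.18. Of 10 tested oligodendrocyte sets 1, that of Mobp, passed, lower in DBA (the 10 sets summed to 30712 to 36323 in DBA and 31912 to 43473 in C57). At an unadjusted p under 0.05 by limma, 4 of the 10 passed (40%, against 12.2% of all tested sets), all lower in DBA. Their differences lay below 0 for 8 sets and above for 2, with a median of -0.20. No set of the neuron, astrocyte, vascular, choroid plexus, blood or pituitary lists passed the adjusted threshold. At an unadjusted p under 0.05 by limma, 1 of 8 neuron sets (Syn2) and 1 of 3 choroid plexus sets (Ttr) passed, both higher in DBA. Of 3 blood sets 1 (S100a8) passed, lower in DBA, and of 9 astrocyte sets 1 passed higher and 1 lower. The vascular and pituitary lists had 0 of 6 and 0 of 4. Control sets for the 3′ and the 5′ end of Gapdh measure how complete the RNA was, and their log2 ratio (3′ over 5′) averaged -0.36 in DBA and -0.24 in C57 without overlap (exact permutation test, 2-sided, p = 0.0159, 2 of 126 splits of the arrays as far apart, 0.0635 after adjustment over 4 controls). The same ratio of the other 3 controls gave adjusted p of 0.111 to 0.159. The part of these features in the differences of Eef1akmt1 and Rps4l was not tested.

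Large subunit proteins were measured by 20 sets of 15 genes, of which 14 sets of 11 genes were tested: Rpl6, Rpl7, Rpl7a, Rpl8, Rpl10a, Rpl13a, Rpl19, Rpl22, Rpl37a, Rpl38 and Rpl41. No set passed, at either the adjusted threshold or an unadjusted p under 0.05. Their log2 differences ran from -0.13 to 0.16 with a median of 0.04, and 8 lay above 0. Rpl41, the smallest ribosomal protein, had 17436 to 22776 in DBA brains and 14835 to 25024 in C57 brains (0.05 ± 0.16). Rpl19 97483_at had 7472 to 10474 and 6286 to 9163 (0.15 ± 0.15), and Rpl8, which lies close to the catalytic centre, had 8035 to 9329 and 5938 to 9633 (0.13 ± 0.16), again DBA before C57. The smallest unadjusted p of the role, 0.179, was that of Rpl22 92857_at (0.16 ± 0.11), and the other Rpl22 set, 92856_at, gave 0.15 ± 0.30. The stalk, which recruits elongation factors to the large subunit, was represented by Rplp0, with 6003 to 7550 in DBA brains and 6488 to 8088 in C57 brains (-0.05 ± 0.12).

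Small subunit proteins were measured by 25 sets of 16 genes, with 16 sets of 12 genes tested: Rps3, Rps4l, Rps4x, Rps7, Rps10, Rps13, Rps18, Rps19, Rps24, Rps27, Rps28 and Rps29. Apart from the Rps4l set, none passed the adjusted threshold. The differences ran from -0.70 to 0.68 with a median of 0.01. Rps24 97696_r_at, the brightest set of Rps24, differed by 0.01 ± 0.12, but it and the Rpl7 set 97695_s_at are annotated from 1 sequence record, so which gene it reads is in doubt. The other tested set of Rps24, 93121_at, differed by -0.16 ± 0.28.

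Rps7, a small subunit protein that is also known to bind the p53 regulator Mdm2, had the smallest p among ribosomal proteins after Rps4l and is given here because of its value. Its intensity was 7993, 8536, 9239 and 7165 in DBA brains, against 5967, 7104, 5803, 7223 and 6931 in C57 brains. Only DBA 4 lay within the C57 range. The log2 difference was 0.32 ± 0.12 (95% interval 0.06 to 0.58), with an adjusted p of 0.278.

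Rps28, a small protein near the site where messages leave the small subunit, was the single gene whose sets lay more than 1 log2 unit apart in their strain difference. Set 98085_f_at had 8532, 8777, 13154 and 7221 in DBA brains, against 10718, 13317, 11272, 16020 and 14294 in C57 brains. DBA 3 lay within the C57 range and the other DBA brains below it (-0.50 ± 0.19, adjusted p = 0.300). Under quantile normalization this set was past the threshold (-0.54, adjusted p = 0.0483).

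Set 100758_at of Rps28 had 7863, 7957, 8498 and 6074 in DBA brains, against 5295, 7561, 6108, 8419 and 7959 in C57 brains (0.11 ± 0.17). Only DBA 3 lay outside the C57 range, just above it. Set 98086_r_at had 146, 128, 341 and 84.7 in DBA brains, against 76.3, 114, 87.2, 110 and 90.6 in C57 brains, and its difference of 0.68 ± 0.34 (adjusted p = 0.476) was 0.30 without DBA 3. The differences of these 3 sets spanned 1.18 log2 units, and no direction of the gene follows from them. The suffix f_at marks probes that match a family of similar sequences and r_at a set chosen with some design rules dropped. For the 15 member genes with more than 1 tested set the median span was 0.18.

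Start codon and ternary complex factors were measured by 20 sets of 14 genes, 19 of them tested, and none passed at the adjusted threshold or at an unadjusted p under 0.05. Their differences ran from -0.26 to 0.31 with a median of 0.01. The role covers Eif1a, Eif1ax and Eif1b, which help the scanning ribosome find the start codon, Eif2s2, the beta subunit of eIF2, 4 subunits of the exchange factor eIF2B (Eif2b1, Eif2b2, Eif2b4 and Eif2b5), Eif5, which triggers GTP hydrolysis by eIF2, Eif5b, which joins the subunits, and Eif6, which keeps the large subunit free until it is mature. It also holds Eif2a, Eif2d and Eif5a.

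Eif1b had 3571 to 4141 in DBA brains and 3377 to 4264 in C57 brains (-0.0035 ± 0.11). Eif5 had 1380 to 1987 in DBA brains and 1656 to 1869 in C57 brains (-0.19 ± 0.13), and Eif1ax 160111_at had 1149 to 1502 and 1120 to 1408, in the same order (0.10 ± 0.12). The other Eif1ax set, 93358_at, differed by 0.20 ± 0.14. For Eif1b, Eif5 and Eif1ax the ranges overlapped. Eif2a, which can bring initiator tRNA to the ribosome in place of eIF2, had the smallest p of the role, with 341 to 504 in DBA brains and 275 to 381 in C57 brains (0.31 ± 0.15, unadjusted p = 0.0647).

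Eif3 subunits were measured by 13 sets of 10 genes, 11 of them tested, with differences of -0.40 to 0.18 and a median of -0.13. None passed the adjusted threshold. Eif3b, which encodes a scaffold subunit of the eIF3 core, had 1238, 1333, 1239 and 1296 in DBA brains, against 1491, 1480, 1864, 1580 and 1383 in C57 brains. The strains did not overlap, the difference was -0.28 ± 0.11 (1.22-fold lower, 95% interval -0.52 to -0.04), and the adjusted p was 0.306. The 3 brightest subunits were Eif3c, with 3440 to 4206 in DBA brains and 3533 to 3683 in C57 brains (0.01 ± 0.10), Eif3l (0.05 ± 0.12) and Eif3k (-0.16 ± 0.11). Eif3j1, a loosely bound subunit, had 779 to 1262 in DBA brains and 965 to 1751 in C57 brains (-0.34 ± 0.21, adjusted p = 0.587), and the sets of Eif3e gave -0.40 ± 0.76 (101695_at) and -0.23 ± 0.23 (160554_at). The second set of Eif3b, 161743_i_at, was under the brightness limit.

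Cap binding and helicase factors were measured by 13 sets of 8 genes, 9 of them tested, with a median difference of -0.15. Eif4e, the protein that holds the cap and is often the scarce partner of the complex, had 83.4, 55.3, 75.5 and 73.4 in DBA brains, against 105, 88.7, 107, 99.7 and 105 in C57 brains by set 99097_at. Every DBA brain lay below every C57 brain, 83.4 against 88.7 at the nearest. The set was 1.42-fold lower (-0.50 ± 0.13, 95% interval -0.80 to -0.21), and its adjusted p of 0.102 missed the threshold, with a range of 0.0937 to 0.213 when arrays were left out. The other Eif4e set, 162222_r_at, was under the brightness limit.

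The partners of Eif4e did not pass. Eif4a2, the helicase form prominent in brain, had 5533 to 9294 in DBA brains and 7486 to 9405 in C57 brains (-0.18 ± 0.16), and Eif4g3, a scaffold that binds Eif4e and the helicase, differed by -0.15 ± 0.18. Eif4b 100557_g_at, the set of a helicase cofactor, had 1528 to 1954 in DBA brains and 1207 to 1615 in C57 brains (0.28 ± 0.13, unadjusted p = 0.0502), and the other tested Eif4b set, 161342_r_at, differed by 0.09 ± 0.17.

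The elongation group, in which Eef1akmt1 is counted, was measured by 8 sets of 7 genes, with 6 sets tested. Beside Eef1akmt1, Eef1a1 and Eef1a2 these were Eef1b2 and Eef1d, which reload eEF1A with GTP, and Eef2. Eef2, the translocase, had 5192 to 6401 in DBA brains and 4395 to 5688 in C57 brains (0.15 ± 0.11, 95% interval -0.10 to 0.41). Without Eef1akmt1, 1 of 83 tested member sets passed the adjusted threshold.

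Inhibitors and kinases were measured by 10 sets of 8 genes, 8 of them tested. Eef2k, the kinase that inactivates eEF2, had 51.7, 66.9, 179 and 49.7 in DBA brains, against 30.3, 60.1, 34.8, 20.7 and 42.4 in C57 brains. DBA 3 stood far above the rest, and C57 2 lay within the DBA range. The difference was 1.07 ± 0.41 with an adjusted p of 0.309, and 0.65 without DBA 3. The 4 eIF2 kinases, which answer heme shortage (Eif2ak1), double-stranded RNA (Eif2ak2), stress of the endoplasmic reticulum (Eif2ak3) and amino acid shortage (Eif2ak4), did not pass, with -0.20 ± 0.12 for Eif2ak1, 0.24 ± 0.24 for Eif2ak2, -0.08 ± 0.13 for Eif2ak3 and 0.19 ± 0.24 for Eif2ak4. Eif4ebp2, the main 4E-binding protein of brain, had 1261 to 1376 in DBA brains and 1299 to 1392 in C57 brains by set 101072_at. That difference of -0.05 ± 0.08 came with the smallest SD within strains of any tested member, 0.046 on the log2 scale. Its other tested set, 94353_at, had 70.9 to 244 in DBA brains and 131 to 294 in C57 brains, a difference of -0.70 ± 0.40 (95% interval -1.59 to 0.19, adjusted p = 0.549).

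**Figure D3:**
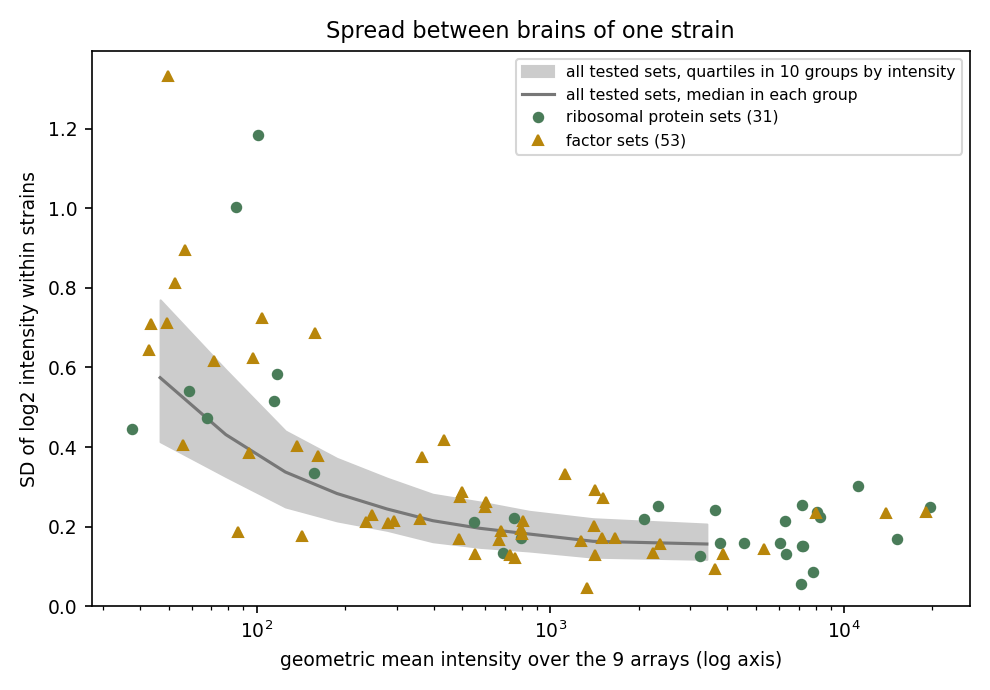
SD of log2 intensity within strains (y axis) against geometric mean intensity over the 9 arrays (x axis, log scale) for 31 ribosomal protein sets and 53 factor sets. The line and band give the median and the quartiles of all 9316 tested sets in 10 equal groups by intensity. Members lie inside and outside the band, and their medians lie above it in groups 3, 4 and 6 from the dimmest. The sets with an SD over 0.5 are dim.

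How far brains of 1 strain differed depended on brightness. The median SD within strains was 0.22 over tested members and 0.24 over all tested sets. All sets were split into 10 equal groups by intensity. In the brightest group, which held 27 member sets, the medians were 0.16 for members and 0.16 for all sets, and in the dimmest group, with 9 member sets, they were 0.71 and 0.57. Counted from the dimmest, groups 3, 4 and 6 held 6, 3 and 3 member sets. Their member medians of 0.55, 0.38 and 0.37 lay above the upper quartile of all sets (0.44, 0.37 and 0.28). In groups 5 and 8, with 4 and 8 member sets, the member medians lay below those of all sets (0.21 against 0.24 and 0.177 against 0.182). The widest set of each role was Rpl19 161961_at with an SD of 1.00, Rps13 93027_r_at with 1.18, Eif5a with 0.71, Eif3e 101695_at with 1.33, Eif4e2 161911_f_at with 0.90, Eef1b2 96624_r_at with 0.72, Eif4ebp1 with 0.81 and Rplp0 with 0.15. Differences of such wide sets have little precision.

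The bright ribosomal protein sets deviated together from array to array. Of the 19 sets with a mean over 2000, 14 (73.7%) had their lowest C57 value in C57 1 and 13 (68.4%) their lowest DBA value in DBA 4. All tested sets over that mean showed the same arrays lowest in 50.1% and 46.3%, and all tested sets in 17.1% and 25.1%. The median deviation of the bright ribosomal protein sets from their own means ran from -0.20 in C57 1 to 0.12 in C57 4 on the log2 scale. That of the 8 factor sets over the same mean ran from -0.22 in C57 1 to 0.12 in C57 4. Of these factor sets 62.5% were lowest within C57 in C57 1 and 50% lowest within DBA in DBA 4. The 99th percentile of intensity over sets that are no members was also lowest in C57 1 (6497) and, within DBA, in DBA 4 (6769), and highest in DBA 3 (7976). Whether the shared deviation lies in the brains or in the hybridisations was not tested.

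**Figure D4:**
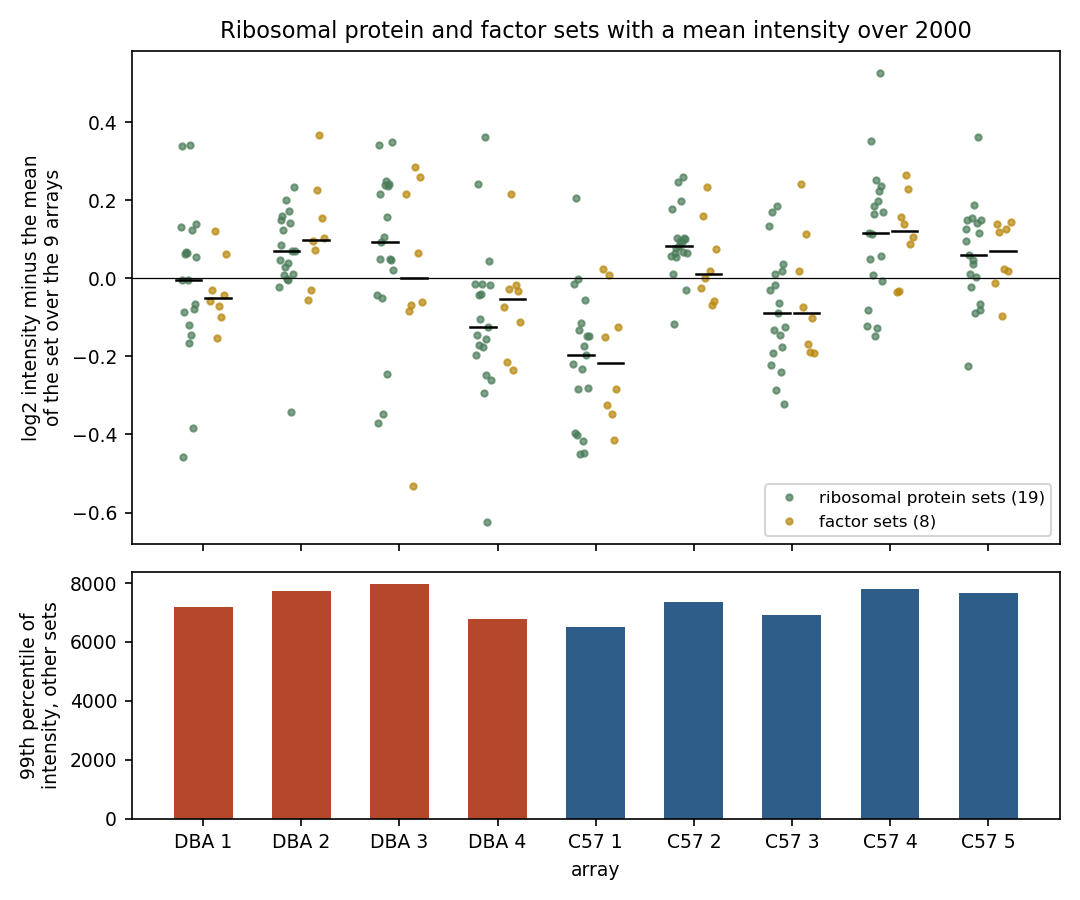
Above, log2 intensity minus the mean of the set over the 9 arrays (y axis) for 19 ribosomal protein and 8 factor sets with a mean intensity over 2000, by array (x axis), with black bars at the medians. Below, the 99th percentile of intensity of all other sets on the same arrays. C57 1 has the lowest ribosomal protein median (-0.20), the lowest factor median (-0.22) and the lowest 99th percentile (6497).

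DBA 3 stood apart in ribosomal RNA. The 3 control sets for 18S rRNA, the RNA of the small subunit, read 7466, 1135 and 1637 in DBA 3 (3′, middle and 5′), against 231 to 660, 68.4 to 99.5 and 67.8 to 95.5 in the other DBA brains and 124 to 1210, 15.9 to 262 and 6.6 to 254 in C57 brains. Eif3c, Eef2k and Rps28 98086_r_at, among other member sets, were also highest in DBA 3. Within DBA, this array was the highest in 27.2% of all tested sets and in 35.7% of those with a mean over 2000. For the ribosomal protein sets over that mean the share was 42.1%. Whether these member values bear on the 18S values was not tested. With DBA 3 left out, Eef1akmt1 was past the threshold and Rps4l was not.

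Genes of the same pathway outside the rule were counted beside the members. Of 67 tested sets of the mitochondrial ribosome, which works apart from the cytosolic one, 3 were lower in DBA and none higher: Mrpl35 (-1.14 ± 0.12, adjusted p = 0.000704), Mrpl48 (-0.78 ± 0.11, adjusted p = 0.00343) and Mrps7 (-0.68 ± 0.10, adjusted p = 0.00576). The called share of this list was 4.48%, against 2.50% of all tested sets in either direction and 1.61% lower, and 9 of its sets (13.4%) had an unadjusted p under 0.05, against 12.2% of all sets. The median of these 67 sets was -0.01. Mrpl35 had 216 to 293 in DBA brains and 505 to 612 in C57 brains, without overlap.

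Among the other lists no set passed the adjusted threshold by limma: 0 of 13 for mTOR and its kinases (0 at an unadjusted p under 0.05), 0 of 11 for poly(A) binding and release (2), 0 of 22 for ribosome assembly (5), 0 of 22 for tRNA synthetases (5), 0 of 7 for the stress response (1) and 0 of 3 for nascent chain proteins (0). The unadjusted share was 22.7% for ribosome assembly and for tRNA synthetases, 18.2% for poly(A) binding and release and 14.3% for the stress response. Over all tested sets it was 12.2%, and 2.50% passed the adjusted threshold. Of the 5 ribosome assembly sets with an unadjusted p under 0.05, 4 were lower in DBA and 1 higher. Of the 5 tRNA synthetase sets 4 were higher and 1 lower. Differences lay above 0 for 11 of 22 ribosome assembly sets (median -0.01) and 16 of 22 tRNA synthetase sets (median 0.11). Ribosomal proteins under other names had 2 tested sets and none past the threshold. One of them, Rpsa, a small subunit protein also known as a laminin receptor, had 1414 to 1693 in DBA brains and 1897 to 2255 in C57 brains, a difference of -0.45 ± 0.10 with an adjusted p of 0.0508.

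A further 39 sets are annotated with a member together with other symbols, mostly pseudogenes, and were kept apart because their gene is uncertain. Of the 35 tested, 1 passed the adjusted threshold, higher in DBA, and none passed lower. Over all tested sets 2.50% passed in either direction and 0.891% higher. Of the 35 differences, 25 lay above 0 and 10 below. Their median was 0.11, against 0.01 over all tested sets, and 22 of these sets had a mean over 2000. The unnamed set that passed, 93730_at, averaged 6107 in DBA brains and 3929 in C57 brains (0.64 ± 0.13, adjusted p = 0.0265).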

How the data were processed

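Members and lists were chosen with earlier results of these data known. The authors deposited 1 table of linear intensities for the 9 arrays; per the labels, RNA came from a column kit for lipid-rich tissue and the array maker's standard protocol. No source used here gives the scanner software, the probe summary or the normalization. The mean of each array without 2% at either end was 496 to 498, so arrays had been scaled alike, and array medians were 160 to 198. No detection calls were used. Precision is limited by how many arrays there are. The labels name 5 and 4 mice without tying arrays to them; if arrays shared an animal, p-values would measure technical spread.

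The 66 control sets were removed. A floor was set at the 1st percentile of positive intensities (1.7), which raised 0.977% of values, log2 was taken, and the dimmest 25% of sets by mean were left out. Strains were compared with lmFit and eBayes of limma 3.58.1 (R 4.3.3), 2-sided, with Benjamini-Hochberg adjustment over 9316 sets. ± is the standard error. Means are geometric. Array numbers were taken as animals and not as pairs: same-numbered arrays correlated at -0.167 to -0.007 in their deviations.

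Named sets passed the threshold, had the smallest p or largest SD of their role, belonged to its 3 brightest genes, shared a gene with a set named for its p, or disagreed by over 1 log2 unit; Rps7, Eif3j1, Eif2ak2, Eif2ak4 and second sets of some genes were added after their values were seen. Alternatives changed scaling, floor, filter, variance model, block, threshold and arrays. The fit was tested on simulated data.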

Additional observations from a re-analysis of the deposited data

Results flagged for a closer look

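In 86 groups of 4 or 5 arrays (the named sets and the 18S rRNA controls in each strain), 6 had 1 array far from the rest by Dixon's ratio, where chance flags about 1 in 20. Eif3c was highest in DBA 3, at 12.04 on the log2 scale against 11.75 to 11.77 in the other DBA brains. Eef1akmt1 was lowest in C57 4, at 8.76 against 8.95 to 9.02 in the other C57 brains. Rpl22 92856_at was lowest in DBA 1, at 6.35 against 7.06 to 7.15, and Rplp0 was lowest in DBA 4, at 12.55 against 12.83 to 12.88, each within DBA. The middle and 5′ control sets of 18S rRNA were highest in DBA 3, at 10.15 against 6.10 to 6.64 and at 10.68 against 6.08 to 6.58 in the other DBA brains.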

How the results depend on the processing

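Of the member sets 2 passed the threshold in the fit reported, and 1, Eef1akmt1, with median centring, without a filter on dim sets, at an adjusted p under 0.01 and with the array number as a replicate block. The block used numbers 1 to 4 of both strains and so also left out C57 5. It gave 73 calls over all sets, against 195 without C57 5 and no block and 233 in the fit reported. Quantile normalization gave 3. Other floors, the stricter filter, the intensity trend, the lenient threshold and the use of 1 set per gene each gave 2, and leaving out single arrays gave 1 to 2. The log2 difference of Rps4l 98149_s_at was -0.71 (adjusted p = 0.0912) with median centring, -0.70 (0.0686) without a filter and -0.67 with the replicate block (0.119) and without C57 5 alone (0.0875); the cause was not tested. The median difference with arrays left out ran from -0.02 to 0.09 for ribosomal protein sets and from -0.02 to 0.03 for factor sets.

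Signs turned only for differences of at most 0.15 in size. Under quantile normalization they were -0.012 for Eef1a1, -0.024 for Rpl41, -0.022 for Rps24 97696_r_at and -0.0031 for Rps4x, and in the fit with the block -0.026 for Rpl22 92856_at, -0.0026 for Rps4x and 0.032 for Eif1b, the same values as without C57 5 alone. With single arrays left out the ranges were -0.052 to 0.033 for Eif1b, -0.14 to 0.0043 for Eif2ak3, -0.057 to 0.040 for Eif3c, -0.020 to 0.10 for Eif3l, -0.026 to 0.34 for Rpl22 92856_at, -0.041 to 0.15 for Rpl41, -0.094 to 0.026 for Rplp0, -0.042 to 0.067 for Rps24, -0.21 to 0.14 for Rps4l 98148_at and -0.019 to 0.043 for Rps4x. In the fit reported, each of these differences lay under its standard error.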
